A study of Homo sapiens with 27 samples.

Results

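The 10 genes described here encode transcription factors of the B lineage and of B-cell precursor leukemia. They were taken as a list of names, PAX5, EBF1, TCF3, IKZF1, IKZF3, FOXO1, LEF1, ERG, RUNX1 and ETV6, and are 10 of the 60619 gene identifiers counted. RNA sequencing was performed on 27 samples of REH, an established BCP-ALL (B-cell precursor acute lymphoblastic leukemia) cell line with the ETV6/RUNX1 fusion. According to the study, the remaining wild-type ETV6 allele of REH is deleted. All samples were harvested at 72 h. The groups were medium alone (n = 2), a non-targeting LNA GapmeR called NTC (n = 3), and GapmeR1 and GapmeR2 against lnc-NKX2-3-1 (n = 2 and 3), lnc-RTN4R-1 (n = 3 and 3), lnc-TIMM21-5 (n = 3 and 3) and lnc-ASTN1-1 (n = 3 and 2). GapmeRs were added at 10 µM without a transfection reagent, so medium differed from NTC by the presence of an oligonucleotide. Medium and NTC together are the 5 controls, and every comparison of a GapmeR with controls shares these same samples. All 27 samples are of this cell line, and the replicates were cultures of it treated on different days according to the methods of the study.

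A B-cell precursor is built by a small set of DNA-binding proteins that act in order. TCF3 (the E2A protein) and EBF1 open the B-cell program, and PAX5 then commits the cell to it by switching on genes such as CD79A and shutting off those of other lineages. IKZF1 (Ikaros) and IKZF3 (Aiolos) are zinc finger proteins that bring precursor growth to an end, FOXO1 drives IL7R, RAG1 and RAG2, and LEF1 carries Wnt signals in early B cells. ERG and ETV6 are members of the ETS family, an activator and a repressor respectively. RUNX1 is a master regulator of blood formation whose DNA-binding part is joined to the front part of ETV6 in the ETV6/RUNX1 fusion. Deletions or mutations of PAX5, EBF1, IKZF1, IKZF3 and ETV6 and fusions of TCF3 are known in BCP-ALL.

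Total counts per sample lay between 14627110 and 22750945, with 71.5% to 77.0% of reads falling in a gene. Each targeted lncRNA was lower in every sample of its own GapmeRs than in any control. As a share of the control mean, 15.3% of lnc-NKX2-3-1 remained, 25.4% of lnc-RTN4R-1, 15.8% of lnc-TIMM21-5 and 45.2% of lnc-ASTN1-1. These shares pool both GapmeRs of a lncRNA. The control means were 0.761, 20.8, 1.57 and 25.2 CPM in the same order, so those of lnc-NKX2-3-1 and lnc-TIMM21-5 were low. Of 13 markers of B-cell precursors 12 were detected, with a summed level of 4583 to 6376 CPM per sample. VPREB1, a part of the surrogate light chain, had no count in any sample. Markers of T cells summed to 0.391 to 1.73 CPM and those of erythroid cells to 0.125 to 0.71 CPM. The 9 myeloid markers summed to 96.0 to 481 CPM, and 4 of them had no count in any sample.

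All 10 genes passed the filter on low counts in every comparison, and they fell into 3 tiers when levels were compared per length, as CPM per kb of merged annotated exons. In the upper tier, TCF3 had a mean of 106 and LEF1 of 104 over the 27 samples, with overlapping ranges, followed by PAX5 with 76.3, ERG with 52.3, EBF1 with 47.8, FOXO1 with 32.1, RUNX1 with 31.3 and IKZF1 with 28.6. The lowest sample for LEF1 lay above the highest for PAX5, and the lowest for PAX5 above the highest for ERG. The ranges of ERG and EBF1 overlapped, as did those of EBF1 and FOXO1 and those of FOXO1, RUNX1 and IKZF1. ETV6, with a mean of 3.04 CPM per kb, lay below all of these in every sample. IKZF3 was lower still, with a mean of 0.0822 CPM per kb and 6 to 38 counts per sample, against 276 to 582 counts for ETV6 and at least 2470 for FOXO1. REH cells thus had abundant RNA of 8 of these factors, less of ETV6 and almost none of IKZF3. The counts are per gene and were not split by transcript. With the wild-type allele deleted, the ETV6 level includes the front part of the fusion transcript. For its level per kb, ETV6 was divided by 7230 bases of merged exons of the whole gene. The fusion holds only the front part of ETV6, so this level can lie too low for the fusion transcript. Reads from RUNX1 itself and from the back part of the fusion cannot be told apart. Reads on the opposite strand made up 0.0832% to 3.14% of the reads at each of these genes, the highest share being that of IKZF3.

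**Figure D1:**
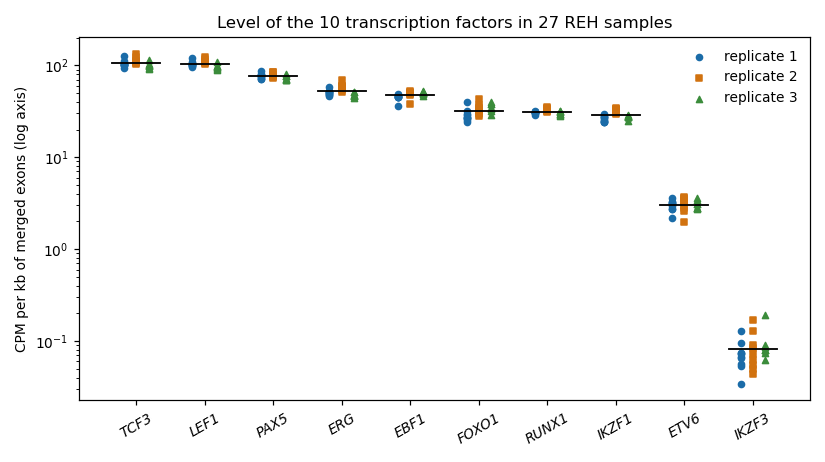
Level of each of the 10 genes in each of the 27 samples, as CPM per kb of merged exons on a log axis, with colour and shape for the replicate number and a black line for the mean over all samples. TCF3 and LEF1 are highest with means of 106 and 104, ETV6 stands apart at 3.04 and IKZF3 at 0.0822.

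The oligonucleotides are shown because the results below differ between GapmeRs. A GapmeR is an antisense DNA strand flanked by locked nucleic acid, and RNA paired with it is cut by RNase H. The 5 that the results turn on, as listed by the study from 5′ to 3′, were:
lnc-NKX2-3-1 GapmeR1: tgctctgtgcggattg
lnc-NKX2-3-1 GapmeR2: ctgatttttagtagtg
lnc-RTN4R-1 GapmeR1: gcattcatgggttaag
lnc-RTN4R-1 GapmeR2: tgctgagacatctagg
NTC: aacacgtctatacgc

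Each targeting GapmeR was fully complementary to annotated transcripts of its own lncRNA. The search covered the transcribed spans of expressed genes, of the 10 genes and of the targets, not the whole genome. Only sites without gaps were searched. In hg38 coordinates, both GapmeRs of lnc-NKX2-3-1 were complementary to adjoining stretches of one exon. These lay at chr10:99528207-99528222 for GapmeR1 and at chr10:99528191-99528206 for GapmeR2 (+ strand). None of the 10 genes held a site with fewer than 2 mismatches to any of the 9 oligonucleotides in its transcribed span. In annotated spliced transcripts none held a site with fewer than 3. Sites with 2 mismatches included a LEF1 intron site for NTC, which is part of the controls. Of expressed genes, 0.924% had a site this close to NTC. For lnc-NKX2-3-1 GapmeR1 and the genes that changed with it, the closest sites had 3 mismatches in EBF1 and 4 in TCF3, FOXO1 and ETV6. Among 14711 expressed genes, 8.62% had a site with 3 or fewer mismatches to this GapmeR and 46.8% a site with 4 or fewer. The target site and the closest sites in EBF1 and ETV6 are printed in the sense direction of each gene, with bases that pair with the GapmeR in capitals:
lnc-NKX2-3-1 exon, chr10:99528207-99528222, + strand: CAATCCGCACAGAGCA
EBF1 intron, chr5:158731903-158731918, - strand: CAATgtGCACAcAGCA
ETV6 exon, chr12:11649705-11649720, + strand: CAATgaGCAaAGAGCt

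The ETV6 stretch was 1 of 8 sites with 4 mismatches in that gene. For lnc-RTN4R-1 GapmeR2 the closest site in ETV6 had 3 mismatches and lay in an intron, beside 16.8% of expressed genes with a site this close. For lnc-RTN4R-1 GapmeR1 the closest site in IKZF3 had 4 mismatches, beside 53.3% of expressed genes. With this GapmeR ETV6 was not called, and its closest site there had 3 mismatches and lay in an exon, beside 13.6%. A match in letters is a description, and pairing or cutting at these sites was not measured.

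Both GapmeRs of a lncRNA pooled, as the study pooled them, passed the test for none of the 10 genes. The study described 6 against 6 samples per lncRNA and used DESeq2, whereas these fits held 5 or 6 against 5. In these 4 comparisons with controls, edgeR's quasi-likelihood test with Benjamini-Hochberg adjustment over all genes called 0 of 40 gene and lncRNA combinations, and 4 had an unadjusted p under 0.05. DESeq2 called 1. Of all genes tested, the calls made up 0% with lnc-NKX2-3-1, 0.476% with lnc-RTN4R-1, 0.00665% with lnc-TIMM21-5 and 0.0136% with lnc-ASTN1-1. The largest difference was that of IKZF3 with lnc-RTN4R-1 (log2 fold change 0.88, 95% interval 0.09 to 1.67, adjusted p = 0.407 by edgeR). For the other 9 genes the log2 fold changes lay between -0.26, for ETV6 with lnc-RTN4R-1, and 0.34, for FOXO1 with lnc-NKX2-3-1. The lowest adjusted p of any of the 10 genes in the pooled comparisons was 0.144, for ETV6.

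Single GapmeRs gave another picture, and lnc-NKX2-3-1 GapmeR1 moved the most: EBF1 and ETV6 fell, and TCF3 and FOXO1 rose. These are 4 of 10 genes, beside 17.6% of all genes tested in that comparison, 7.41% higher and 10.2% lower. The other 6 genes were not called. This group has only 2 samples, replicates 1 and 2.

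ETV6, counted over the whole gene with the front part of the fusion, had 15.7 and 14.4 CPM with lnc-NKX2-3-1 GapmeR1. The controls had 23.1 and 24.4 CPM in medium and 22.5, 25.5 and 25.7 CPM in NTC. Both treated samples lay below all 5 controls, and also below every other sample of the series, whose lowest value was 19.0 CPM. The log2 fold change was -0.70 ± 0.10 (SE), which is 0.614 times the control level (adjusted p = 0.00032 by edgeR). The call held in all 10 alternative analyses and with each of the 7 samples left out in turn.

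EBF1, which opens the B-cell program, had 226 and 242 CPM with lnc-NKX2-3-1 GapmeR1. The controls had 289 and 325 CPM in medium and 292, 312 and 320 CPM in NTC. The groups did not overlap, and the other 20 samples lay between 285 and 333 CPM. EBF1 thus had a log2 fold change of -0.41 ± 0.08 (SE), or 0.751 times the control level (adjusted p = 0.00292 by edgeR). Without replicate 1 of this GapmeR it was -0.36 with an adjusted p of 0.0724.

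FOXO1, which drives the genes of the interleukin 7 receptor and of recombination, had 239 and 258 CPM with lnc-NKX2-3-1 GapmeR1. Controls had 152 and 174 CPM in medium and 160, 180 and 198 CPM in NTC. Both treated samples lay above all controls. This is a log2 fold change of 0.51 ± 0.09 (SE), or 1.42 times the control level (adjusted p = 0.00231 by edgeR), and 0.45 with an adjusted p of 0.0571 without replicate 2 of this GapmeR.

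TCF3, the E protein, had 808 and 853 CPM with lnc-NKX2-3-1 GapmeR1. Controls had 641 and 718 CPM in medium and 594, 697 and 626 CPM in NTC. Again no sample overlapped. TCF3 had a log2 fold change of 0.33 ± 0.09 (SE), or 1.25 times the control level (adjusted p = 0.0205 by edgeR). This call needed both treated samples: without replicate 1 the log2 fold change was 0.37 with an adjusted p of 0.0863, and without replicate 2 it was 0.28 with an adjusted p of 0.22. EBF1 and TCF3, which share many target genes, thus moved in opposite directions.

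The other 6 genes with this GapmeR were PAX5 (log2 fold change -0.11), IKZF1 (-0.11), LEF1 (-0.03), ERG (-0.04), RUNX1 (-0.00443) and IKZF3 (0.67). For IKZF3 the 95% interval ran from -0.07 to 1.41, since its samples held 16 and 25 counts. RUNX1, with 483 and 526 CPM against 471 to 550 CPM in controls, lay within the control range while ETV6 fell.

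**Figure D2:**
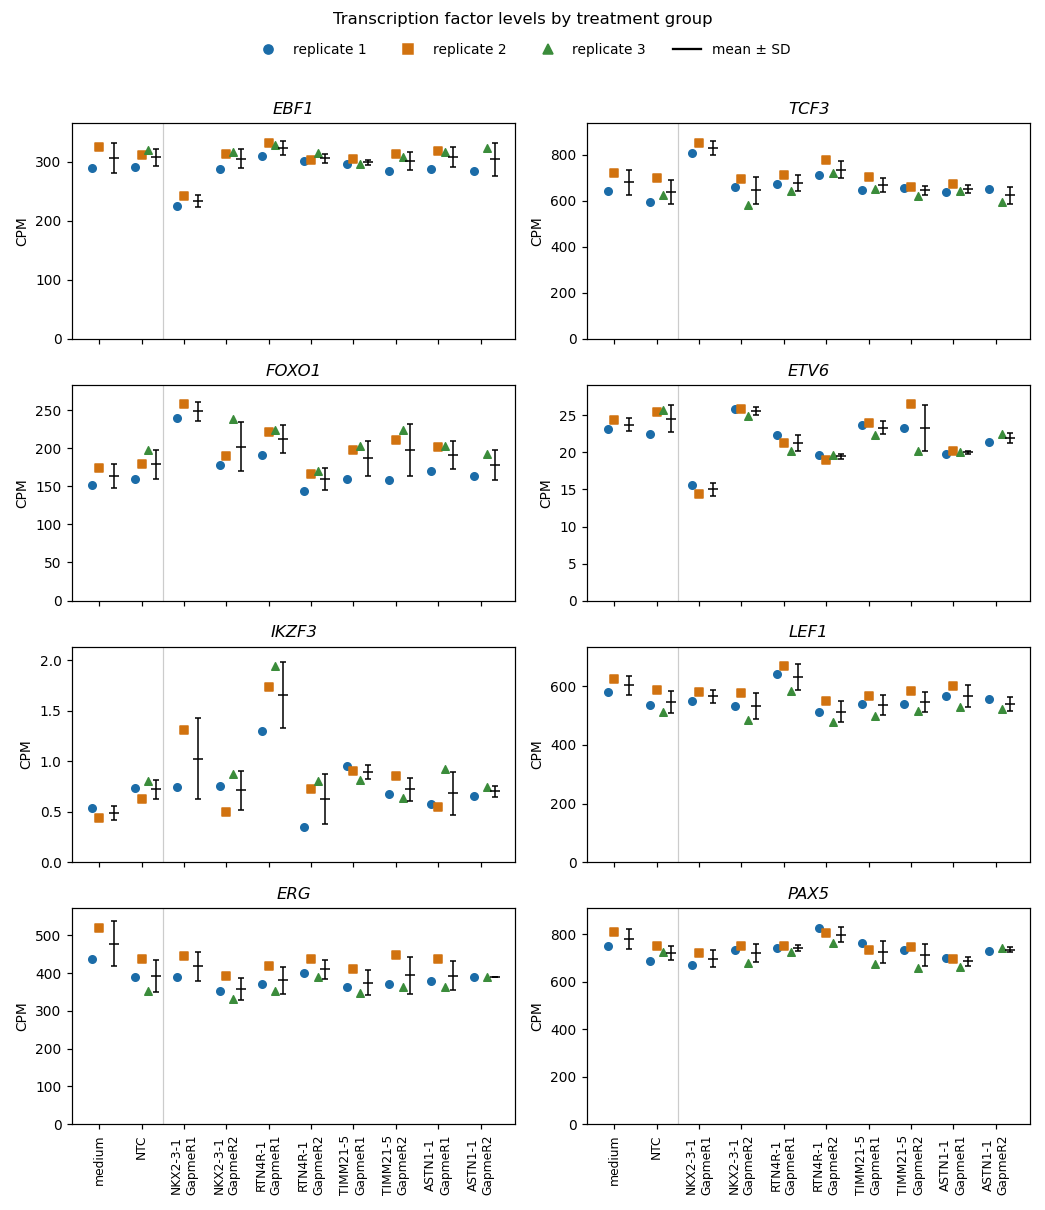
CPM of 8 of the 10 genes in each sample, by treatment group, with colour and shape for the replicate number and a bar for the group mean ± SD; controls are left of the grey line. With NKX2-3-1 GapmeR1, EBF1 and ETV6 are below and TCF3 and FOXO1 above all 5 controls, and with RTN4R-1 GapmeR1 all 3 samples of IKZF3 are above them.

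For lnc-RTN4R-1, IKZF3 rose with GapmeR1 and ETV6 fell with GapmeR2, 1 gene of 10 in each case, beside 1.59% (1.01% higher) and 6.62% (3.85% lower) of all genes tested. IKZF3 had 1.30, 1.73 and 1.94 CPM with GapmeR1, from 25, 36 and 38 counts. Controls had 0.535 and 0.438 CPM in medium and 0.734, 0.623 and 0.809 CPM in NTC, from 8 to 15 counts. The 3 treated samples lay above all controls, and only lnc-NKX2-3-1 GapmeR1 replicate 2, with 1.31 CPM, reached their range in the rest of the series. The log2 fold change was 1.40 ± 0.25 (SE), or 2.63 times the control level (adjusted p = 0.0142 by edgeR). Without replicate 2 or replicate 3 of this GapmeR the adjusted p was 0.0682, with log2 fold changes of 1.38 and 1.27, and with NTC alone as control it was 0.116. The rise started from almost no RNA: at its highest, IKZF3 reached 1.94 CPM, while IKZF1 had 262 to 379 CPM across the series.

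ETV6 lay below all 5 controls (22.5 to 25.7 CPM) in every sample of both GapmeRs of lnc-RTN4R-1. With GapmeR1 it had 22.4, 21.2 and 20.2 CPM and was not called. With GapmeR2 it had 19.7, 19.0 and 19.7 CPM. The log2 fold change was -0.33 ± 0.08 (SE), or 0.797 times the control level (adjusted p = 0.0295 by edgeR). This call was less stable than the one for lnc-NKX2-3-1 GapmeR1. It was lost without replicate 1, 2 or 3 of this GapmeR (log2 fold change -0.34, -0.31 and -0.35, adjusted p = 0.0728, 0.138 and 0.0577), without medium replicate 2 (-0.33, adjusted p = 0.0554) and without NTC replicate 2 (-0.31, adjusted p = 0.0776). It was also lost with no filter on low counts (-0.32, adjusted p = 0.0548), with NTC alone as control (-0.36, adjusted p = 0.0836) and with NTC plus all GapmeRs against other lncRNAs as the reference (-0.21, adjusted p = 0.396). Beside this, the myeloid markers summed to 312 to 481 CPM with lnc-RTN4R-1 GapmeR2 and to 172 to 209 CPM with lnc-NKX2-3-1 GapmeR1, against 100.1 to 156 CPM in the controls; MPO, the peroxidase of granules, made up most of the sum and 4 of the 9 markers, ELANE, FCGR3B, S100A8 and S100A9, had no count anywhere. Of the 3 myeloid markers that could be tested, 2 rose and 0 fell with lnc-RTN4R-1 GapmeR2. With lnc-NKX2-3-1 GapmeR1 MPO and CSF1R, a receptor of macrophages, rose, while CSF3R, the receptor for the granulocyte growth factor G-CSF, fell (-1.08 ± 0.22, adjusted p = 0.00505 by edgeR). CSF1R had only 6 to 46 counts per sample across the series, against 1420 to 7725 for MPO. The part of MPO-bearing RNA in the results on ETV6 was not tested. In these bulk samples, fewer cells with a transcript and less of it per cell cannot be told apart.

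None of the 10 genes was called with lnc-NKX2-3-1 GapmeR2, with either GapmeR of lnc-TIMM21-5 or with either GapmeR of lnc-ASTN1-1, beside 0%, 0.079%, 0.0593%, 0.718% and 0.013% of all genes tested. The lowest adjusted p among these was 0.223, for ETV6 with lnc-ASTN1-1 GapmeR1. That group had 19.8, 20.2 and 20.0 CPM of ETV6, below all 5 controls.

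Replicates with the same number deviated together, so each fit was repeated with the replicate number as a block. With the block, 18 of 80 gene and GapmeR combinations were called, 7 higher and 11 lower, in place of 6. All 6 were among the 18. The background rose too, to 35.3% of genes for lnc-NKX2-3-1 GapmeR1, 9.26% and 21.7% for lnc-RTN4R-1 GapmeR1 and GapmeR2, 2.68% for lnc-NKX2-3-1 GapmeR2 and 4.73% for lnc-ASTN1-1 GapmeR1. The 12 added calls were smaller, with log2 fold changes between -0.29 and 0.27. FOXO1 gave 3 of them, being higher with lnc-RTN4R-1 GapmeR1 (0.27 ± 0.04, adjusted p = 1.82e-06 by edgeR) and with lnc-NKX2-3-1 GapmeR2 (0.18 ± 0.04, adjusted p = 0.00756), and lower with lnc-RTN4R-1 GapmeR2 (-0.15 ± 0.05, adjusted p = 0.025). LEF1 was higher with lnc-RTN4R-1 GapmeR1 (0.17) and lower with its GapmeR2 (-0.14), and IKZF1 was lower with lnc-RTN4R-1 GapmeR2 (-0.14) and lnc-NKX2-3-1 GapmeR1 (-0.12). The others were ETV6 with lnc-ASTN1-1 GapmeR1 (-0.29), ERG with lnc-NKX2-3-1 GapmeR2 (-0.21), RUNX1 with lnc-RTN4R-1 GapmeR1 (-0.13), PAX5 with lnc-NKX2-3-1 GapmeR1 (-0.12) and TCF3 with lnc-RTN4R-1 GapmeR2 (0.17). In the pooled comparisons the block gave 0 calls among these genes, beside 0.0127% of all genes with lnc-NKX2-3-1, 1.85% with lnc-RTN4R-1, 1.26% with lnc-TIMM21-5 and 0.85% with lnc-ASTN1-1, with 10 combinations at an unadjusted p under 0.05.

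**Figure D3:**
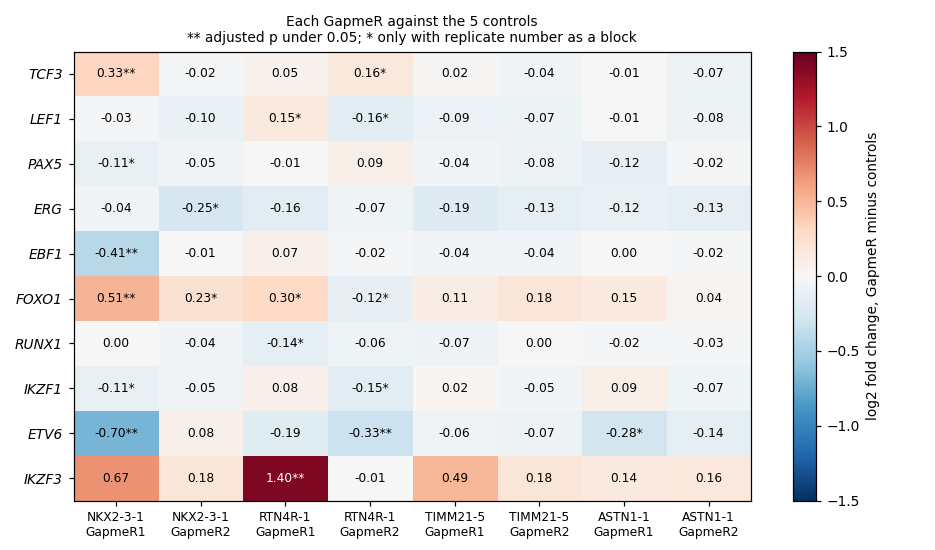
Log2 fold change of each of the 10 genes with each of the 8 GapmeRs against the 5 controls, from fits with no block, as numbers and colours (red higher, blue lower); a double star marks an adjusted p under 0.05, a single star a call made only with the replicate number as a block. The 6 double stars are 4 genes with NKX2-3-1 GapmeR1, IKZF3 with RTN4R-1 GapmeR1 and ETV6 with RTN4R-1 GapmeR2.

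Whether both GapmeRs against one lncRNA acted differently on these genes was tested directly, without the controls. For lnc-NKX2-3-1 the difference was called for 3 of 10 genes, 1 higher and 2 lower with GapmeR1, beside 13% of all genes (3.97% higher, 8.98% lower). ETV6 had 25.9, 25.9 and 24.9 CPM with GapmeR2, so the log2 difference, GapmeR1 minus GapmeR2, was -0.78 ± 0.11 (SE, adjusted p = 0.00123 by edgeR), and this call held with each of the 5 samples left out. EBF1 had 288, 313 and 316 CPM with GapmeR2, a difference of -0.41 ± 0.09 (adjusted p = 0.0154), and TCF3 had 659, 696 and 581 CPM, a difference of 0.35 ± 0.10 (adjusted p = 0.0473). The EBF1 call was lost without replicate 1 or 2 of GapmeR1 (-0.35 and -0.46, adjusted p = 0.178 and 0.0961). That for TCF3 was lost without these same samples (0.40 and 0.30, adjusted p = 0.158 and 0.352) and without replicate 1 of GapmeR2 (0.35, adjusted p = 0.115). FOXO1 had 178, 190 and 239 CPM with GapmeR2, and its difference of 0.28 missed the threshold (95% interval 0.01 to 0.55, adjusted p = 0.166). Without replicate 3 of GapmeR2, a number that GapmeR1 lacks, it was 0.42 with an adjusted p of 0.00268. With the replicate number as a block, FOXO1 (0.42), ERG (0.16) and PAX5 (-0.10) were called as well as ETV6, EBF1 and TCF3, beside 40.1% of all genes, but this fit has 1 residual degree of freedom. The 2 oligonucleotides thus gave different levels of ETV6, EBF1 and TCF3, although both lowered the same lncRNA.

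For lnc-RTN4R-1, IKZF3, FOXO1 and LEF1 were higher with GapmeR1 than with GapmeR2, 3 of 10 genes beside 5.92% of all genes (3.72% in that direction). IKZF3 had 0.349, 0.727 and 0.809 CPM with GapmeR2, close to or below the 0.438 to 0.809 CPM of the controls, and the log2 difference was 1.40 ± 0.33 (SE, adjusted p = 0.0366 by edgeR). FOXO1 had 192, 222 and 224 CPM with GapmeR1 and 144, 166 and 170 CPM with GapmeR2, so the groups did not overlap, with a difference of 0.42 ± 0.09 (adjusted p = 0.0222). LEF1, the Wnt effector, had 642, 668 and 583 CPM against 513, 548 and 477 CPM, a difference of 0.31 ± 0.08 (adjusted p = 0.0496). Each of these depended on single samples. IKZF3 kept its call only without replicate 3 of GapmeR2; without any other of the 6 samples the adjusted p lay between 0.0688 and 0.108 and the difference between 1.12 and 1.54. FOXO1 lost its call without replicate 2 of GapmeR1 (0.40, adjusted p = 0.0867) and without replicate 1 or 2 of GapmeR2 (0.35 and 0.45, adjusted p = 0.0821 and 0.0702). LEF1 kept its call only without replicate 3 of GapmeR1; without any other sample the adjusted p lay between 0.0846 and 0.197 and the difference between 0.27 and 0.36. The LEF1 call was also lost by a small margin with RLE scaling (adjusted p = 0.0515), with at least 10 counts required in every sample (adjusted p = 0.0508) and with unstranded counts (adjusted p = 0.0521), at differences of 0.31, 0.32 and 0.31; the TCF3 difference for lnc-NKX2-3-1 likewise missed the threshold with at least 10 counts in every sample (0.33, adjusted p = 0.0544). With the replicate number as a block, all 3 were called (IKZF3 1.40, adjusted p = 0.000691; FOXO1 0.41, adjusted p = 5.42e-08; LEF1 0.30, adjusted p = 1.72e-06), as were IKZF1 (0.23), PAX5 (-0.10), TCF3 (-0.12) and ERG (-0.10), beside 30.3% of all genes.

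ETV6 did not differ detectably between both GapmeRs of lnc-RTN4R-1 (0.14, 95% interval -0.05 to 0.34, adjusted p = 0.389), although it was called with GapmeR2 alone against controls. For lnc-TIMM21-5 and lnc-ASTN1-1 none of the 10 genes was called between both GapmeRs, beside 0.0784% and 0.146% of all genes. Their log2 differences lay between -0.07 and 0.31 for lnc-TIMM21-5 and between -0.13 and 0.16 for lnc-ASTN1-1, and at an unadjusted p under 0.05 the count was 0 for both.

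**Figure D4:**
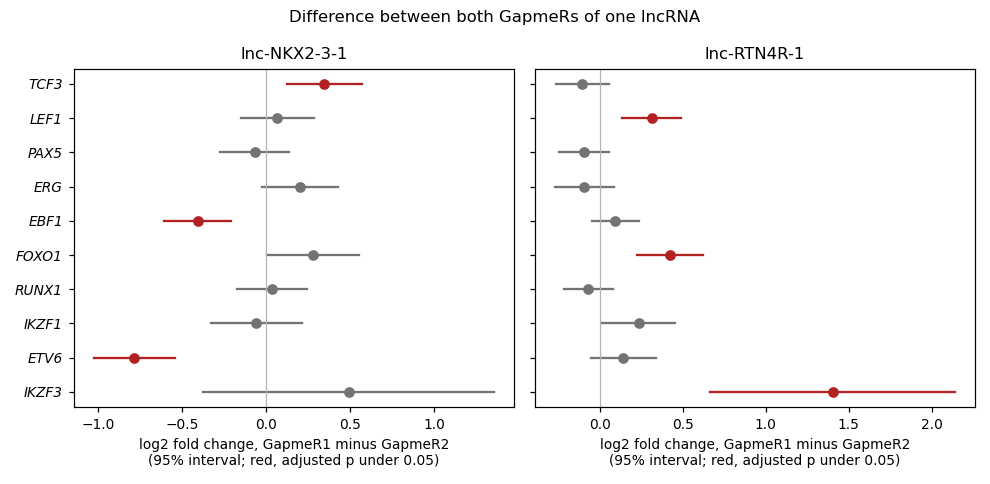
Log2 fold change between GapmeR1 and GapmeR2 of lnc-NKX2-3-1 (left) and lnc-RTN4R-1 (right) for each of the 10 genes, as a point with its 95% interval, red where the adjusted p is under 0.05. ETV6, EBF1 and TCF3 are red on the left (-0.78, -0.41 and 0.35) and IKZF3, FOXO1 and LEF1 on the right (1.40, 0.42 and 0.31).

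Between NTC and medium 0 of the 10 genes were called by edgeR, beside 0% of all genes, and 0 by DESeq2; 1 gene, ERG, had an unadjusted p under 0.05. ERG, the ETS activator, had 437 and 520 CPM in medium and 389, 436 and 352 CPM in NTC, so the samples did not overlap by a narrow margin. The log2 fold change, NTC minus medium, was -0.28 (95% interval -0.52 to -0.03, adjusted p = 0.923), and with the replicate number as a block it was -0.21 ± 0.04 (adjusted p = 0.000268, from a fit with 1 residual degree of freedom), beside 1.36% of all genes. ERG was also lower than in the 5 controls in all 8 single comparisons, with log2 fold changes between -0.25 and -0.04, none of which was called without the block. As these share the medium samples, which hold its highest group mean (478 CPM), the 8 values are not independent of each other. RUNX1 was likewise lower in all 8 (between -0.14 and -0.00371), and its highest group mean was also that of medium (516 CPM).

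Several of the genes also differed by replicate number. In a fit of all 27 samples with the group as covariate, replicate 3 differed from replicates 1 and 2 for 5 of 10 genes, 1 higher and 4 lower, beside 49.6% of all genes tested (25.6% higher and 24% lower). ERG (-0.15 ± 0.04, adjusted p = 0.00468 by edgeR), LEF1 (-0.14 ± 0.03, adjusted p = 4.9e-05), TCF3 (-0.08 ± 0.03, adjusted p = 0.0257) and PAX5 (-0.08 ± 0.03, adjusted p = 0.0199) were lower, and FOXO1 (0.21 ± 0.05, adjusted p = 0.00202) was higher. ERG had a lowest, median and highest level of 352, 384 and 437 CPM in replicate 1, 391, 437 and 520 CPM in replicate 2 and 333, 357 and 390 CPM in replicate 3. LEF1 had 513, 544 and 642 CPM in replicate 1, 548, 584 and 668 CPM in replicate 2 and 477, 515 and 583 CPM in replicate 3. All samples of ERG in replicate 3 lay below all those in replicate 2, while for LEF1, TCF3, PAX5 and FOXO1 the ranges of the 3 replicate numbers overlapped. The PAX5 call was lost without replicate 3 of lnc-NKX2-3-1 GapmeR2 (-0.07, adjusted p = 0.0617), of lnc-TIMM21-5 GapmeR1 (-0.06, adjusted p = 0.0752) or of lnc-TIMM21-5 GapmeR2 (-0.06, adjusted p = 0.0751), and that of TCF3 without replicate 3 of lnc-NKX2-3-1 GapmeR2 (-0.06, adjusted p = 0.123) or of lnc-RTN4R-1 GapmeR1 (-0.08, adjusted p = 0.0648). IKZF1 was not called here, but its levels in replicate 2 stood high, between 324 and 379 CPM with a median of 352, against medians of 281 CPM in replicate 1 and 303 CPM in replicate 3; the comparison of replicate 2 with the others was not tested. Since medium and lnc-NKX2-3-1 GapmeR1 have no replicate 3 and lnc-ASTN1-1 GapmeR2 has no replicate 2, comparisons with these groups hold unequal shares of each day.

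**Figure D5:**
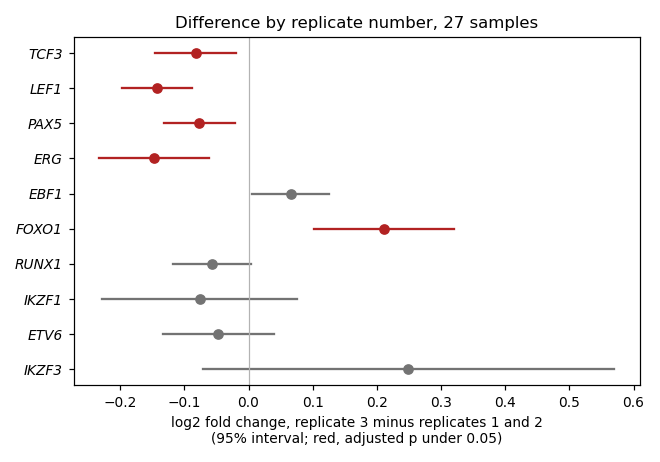
Log2 fold change of replicate 3 against replicates 1 and 2 over all 27 samples, with the treatment group as covariate, for each of the 10 genes, as a point with its 95% interval, red where the adjusted p is under 0.05. ERG, LEF1, TCF3 and PAX5 are red below 0 (-0.15 to -0.08) and FOXO1 is red above 0 (0.21).

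Other genes of the same networks were read from lists, of which 34 or 35 of 35 other regulators of lymphoid cells, 15 of 17 partners of RUNX and ETS factors, 20 of 21 B-lineage target genes and 14 of 14 FOXO1 target genes could be tested in the single comparisons. With lnc-NKX2-3-1 GapmeR1, where 7.41% of all genes were called higher and 10.2% lower, 10 other regulators rose and 1 fell, with a median log2 fold change of 0.17 against 0.00366 over all genes tested. IRF4, a regulator of light chain recombination and plasma cells, rose by 0.97 ± 0.09 on the log2 scale (adjusted p = 9.32e-06 by edgeR), and SOX4, a factor for early precursors, by 0.65 ± 0.07 (adjusted p = 2.63e-05). Of the partners 1 rose and 6 fell, with a median of 0.07: the corepressor TLE1 fell (-0.49 ± 0.07, adjusted p = 0.000289), while TLE4, a corepressor of the same family, rose (0.66 ± 0.11, adjusted p = 0.00102).

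Of the B-lineage target genes 5 rose and 3 fell with lnc-NKX2-3-1 GapmeR1, with a median of 0.12. The surface enzyme CD38 (-0.65 ± 0.08, adjusted p = 0.000104) and VPREB3 (-0.80 ± 0.11, adjusted p = 0.000225), a chaperone of the pre-B-cell receptor, fell, and the tetraspanin CD9 rose (1.00 ± 0.14, adjusted p = 0.000312). Of the FOXO1 target genes 4 rose and 0 fell, with a median of 0.17. These included IL7R, the receptor for interleukin 7 (0.46 ± 0.10, adjusted p = 0.0051), and RAG1, a subunit of the recombinase (0.40 ± 0.09, adjusted p = 0.00785); IL7R and RAG1 also stand in the B-lineage list. The other 10 FOXO1 target genes did not pass this test. With the replicate number as a block, 35.3% of all genes were called. Of the FOXO1 target genes 9 were then higher and 0 lower. The counts were 17 and 5 for the other regulators, 3 and 6 for the partners and 8 and 5 for the B-lineage target genes. Compared with GapmeR2 of this lncRNA instead of controls, without the block, 3 FOXO1 target genes were higher and 2 lower. Of all genes, 3.97% were higher and 8.98% lower in that comparison.

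With lnc-RTN4R-1 GapmeR1, beside 1.59% of all genes (1.01% higher), 4 other regulators, 3 partners and 2 B-lineage target genes rose, and no gene of these lists was called lower and no FOXO1 target gene called. The block, beside 9.26% of all genes, changed this to 13 other regulators, 3 partners, 9 B-lineage and 4 FOXO1 target genes higher and 1 B-lineage target gene lower. IKZF2 (Helios), the relative of IKZF3, rose by 0.58 ± 0.07 on the log2 scale (adjusted p = 0.000701), while IKZF1 was at 0.08 (adjusted p above the threshold). With lnc-RTN4R-1 GapmeR2, beside 6.62% of all genes (2.76% higher, 3.85% lower), 3 other regulators rose and 4 fell, 2 B-lineage target genes fell, and no partner or FOXO1 target gene was called. With the block, beside 21.7% of all genes, the B-lineage list turned to 7 higher and 4 lower, and 6 FOXO1 target genes were higher and 2 lower, 10 other regulators higher and 7 lower, and 1 partner higher. With the other 5 single GapmeRs no gene of the 4 lists was called without the block; with it 0 to 5 genes of a list were higher and 0 to 3 lower, beside 2.68% of all genes with lnc-NKX2-3-1 GapmeR2, 2.73% and 0.335% with GapmeR1 and GapmeR2 of lnc-TIMM21-5, and 4.73% and 0.215% with those of lnc-ASTN1-1. Between both GapmeRs of a lncRNA, PRDM1, which ends the B-cell program in plasma cells, was higher with lnc-NKX2-3-1 GapmeR1 (1.98 ± 0.20, adjusted p = 0.000182 by edgeR). SPIB, an ETS factor of B cells, was higher with lnc-RTN4R-1 GapmeR1 than with its GapmeR2 (1.59 ± 0.15, adjusted p = 0.00033 by edgeR). Both were low, with 0.438 to 7.90 CPM of PRDM1 and 2.85 to 10.6 CPM of SPIB across the series. In the pooled comparisons 1 gene of the 4 lists was called, the ETS factor ETS1 with lnc-RTN4R-1 (0.29 ± 0.06, adjusted p = 0.0357), beside 0.476% of all genes. With the block, 2 other regulators, 1 partner, 3 B-lineage and 1 FOXO1 target genes were higher with lnc-RTN4R-1, and in the other pooled comparisons at most 1 gene of a list was called in each direction.

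The factors whose group means spread most on the log2 CPM scale were IKZF3 (SD 0.43 over 10 groups) and ETV6 (SD 0.22), and RUNX1 spread least (SD 0.05). Over the 27 samples, after centring each replicate number, the genes with the pattern most like that of IKZF3 among 13548 genes were BCOR (Pearson r = 0.807), BICDL1 (0.805) and RBM38 (0.784). Those most like ETV6 were ZXDC (0.923), NTNG2 (0.919) and JAKMIP2 (0.918). These are descriptions over samples that share treatment groups and libraries, so the points are not independent.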

How the data were processed

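The authors aligned reads to hg38 with STAR, and the deposited values are its raw gene counts per sample, in unstranded form and for each strand orientation; the annotation release is not given in the sources used here. The labels describe ribodepleted stranded libraries, the methods poly-A selection. The strand column holding 95.27% of both strand totals was used (column 4). Symbols, exons and coordinates came from GENCODE v44, which matched 56434 of 60619 identifiers, and the GapmeR sequences from the study's list.

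The test was edgeR's robust quasi-likelihood F test (edgeR 4.0.16, R 4.3.3) on these counts, with TMM scaling, filterByExpr (minimum count 10, total 15; the 10 genes always kept) and Benjamini-Hochberg adjustment over all genes tested; an adjusted p under 0.05 is called changed. A fit held only the samples of its comparison. CPM used TMM library sizes, log2 CPM a prior count of 2. Standard errors came from the F statistics. The fits were tested on simulated data. Replicates of a group differed by more than sampling noise (chi-square per degree of freedom 3.28 to 16.1). P-values measure the spread between cultures of one line.

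Replicate numbers come from the labels, and the methods give separate days. Deviations of samples with the same number correlated at a mean of 0.263 (109 pairs, lowest -0.0352), against -0.13 for other pairs (218), and 76.5% of the first principal component followed the number. The replicate block is therefore given where it changed a call of the 10 genes, or counts of list genes against controls. Other alternatives were DESeq2 (1.42.0), RLE scaling, no filter, at least 10 counts in every sample, other references, 1 fit of all samples, unstranded counts, replicates 1 and 2 only, and each sample left out.

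The 10 genes and the lists were chosen with earlier results of these data known. All 10 genes are described in every comparison; from each list up to 3 called genes with the smallest adjusted p per family of comparisons were named (some are not reported here), and for the 2 genes with the widest spread of group means the 3 best-correlated genes with a mean of at least 1 CPM.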

Additional observations from a re-analysis of the deposited data

Results flagged for a closer look

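The 6 differences between both GapmeRs of one lncRNA that passed the test stand out because oligonucleotides against the same transcript gave different levels. On the log2 scale, GapmeR1 minus GapmeR2, they were -0.41 for EBF1, 0.35 for TCF3 and -0.78 for ETV6 with lnc-NKX2-3-1, and 1.40 for IKZF3, 0.42 for FOXO1 and 0.31 for LEF1 with lnc-RTN4R-1. GapmeR1 of lnc-NKX2-3-1 has no replicate 3, so its comparison is unequal in day; with replicates 1 and 2 only, ETV6, EBF1 and TCF3 were called as well.

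In the controls and in the pooled samples of each lncRNA, 1 of 50 sets of 5 or 6 samples held a sample far from the others, while chance alone flags about 1 in 20 sets. IKZF1 was 379 CPM in lnc-ASTN1-1 GapmeR1 replicate 2 and between 298 and 316 CPM in the other 4 samples of that lncRNA. It was the only replicate 2 among them, and IKZF1 was 324 to 379 CPM in replicate 2 of all groups.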

How the results depend on the processing

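In the pooled comparisons the count of called genes was 0 in the main analysis, 1 with DESeq2 and 4 with one fit of all samples, and stayed at 0 to 0 with each sample left out. With single GapmeRs it was 6, 18 with the replicate number as a block and 4 to 7 with a sample left out. Between both GapmeRs it was 6, 3 when at least 10 counts were required in every sample (TCF3 and LEF1 were tested and not called, and IKZF3 was removed), 13 with the replicate block and 3 to 7 with a sample left out; the block fits between both GapmeRs of lnc-NKX2-3-1 and of lnc-ASTN1-1 rest on 1 residual degree of freedom. Between NTC and medium it was 0, 1 with the block and 0 to 0 with a sample left out, and between replicate 3 and the others 5, and 3 to 6.

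One value changed sign: IKZF1 with lnc-NKX2-3-1 GapmeR1 lay between -0.29 and 0.0506 with a sample left out, the highest value being that without replicate 1 of that GapmeR, when a single sample made up the group; it was not called. The cause of these changes was not tested. IKZF3 is limited by its 6 to 38 counts per sample, and lnc-NKX2-3-1 GapmeR1, medium and lnc-ASTN1-1 GapmeR2 by 2 samples each; where 1 sample was left, it was assumed to vary like the other group.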
